A study of Homo sapiens with 8 samples.

Results

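The genes described here are 50 genes of the DNA damage response and of DNA repair, listed by symbol and matched to Ensembl gene identifiers with GENCODE release 44 on GRCh38. They comprise 7 checkpoint kinases and mediators, 7 genes of the BRCA and break-end ubiquitin signalling group, 8 genes of end resection and the RecQ helicases, 8 genes of strand exchange, 11 genes of the Fanconi pathway, 7 genes of end joining and single strand break repair, and 2 mismatch repair genes. All 50 are among the 60624 genes counted in the deposited data, and all 50 are among the 18661 genes with enough counts to be tested. The lowest count of any of the 50 genes in any library was 221.

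Broken or stalled DNA is sensed by the kinases ATM and ATR, which signal through CHEK2 and CHEK1 and hold the cell cycle while repair proceeds. Breaks are either rejoined by end joining, with the Ku proteins and DNA-PK, or resected and copied from the sister chromatid by homologous recombination, with BRCA1, BRCA2 and their partners. DNA crosslinks need the Fanconi pathway, in which a core complex carrying the ubiquitin ligase FANCL modifies the FANCD2 and FANCI pair, after which nucleases and recombination proteins complete the repair.

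The libraries came from A549, an established human lung adenocarcinoma line, in 4 groups of 2 libraries each: untreated cells, cells treated with indisulam, cells treated with SPHINX31 and cells treated with both. Indisulam is an aryl sulfonamide that brings the splicing factor RBM39 to the DCAF15 ubiquitin ligase, and SPHINX31 inhibits SRPK1, a kinase of splicing factors. The study's methods give 0.5 µM indisulam and 5 µM SPHINX31 for 24 h, whereas the treatment note in the labels, the same text on all 8 libraries, names 2 µM indisulam and 18 h and no dose of SPHINX31. The 2 libraries of a group are technical duplicates, so the p-values measure the spread between such duplicates and not between independent treatments. The comparisons ask how the repair genes responded to each compound and whether the pair of compounds did more than each alone.

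Between 51727369 and 63186989 reads were counted on genes per library, and 14.0% to 17.0% of the recorded reads were left unassigned. Values below are CPM, that is, counts scaled to a common library size after TMM adjustment, given for replicate 1 and then replicate 2. The epithelial genes KRT8 and KRT18 were at least 3474 and 3378 CPM in all 8 libraries, EPCAM lay between 25.4 and 33.6 CPM, and the lung lineage genes NKX2-1 and SFTPC were at or below 0.31 CPM. RBM39 mRNA, whose protein indisulam degrades, was 154 and 157 CPM in untreated cells and 361 and 360 CPM with indisulam. SRPK1 mRNA was 128 and 130 CPM in untreated cells and 104 and 101 CPM with indisulam.

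To compare levels between genes, CPM was divided by the length of the canonical transcript. On this scale of CPM per kilobase, the untreated level was highest for the Ku subunits XRCC6 (221) and XRCC5 (135), followed by FANCI (44.8) and the kinase PRKDC (38.4). The lowest was RAD50, a subunit of the break sensor with MRE11 and NBN, at 0.99 CPM per kilobase. Of the exonic bases of RAD50, 76.9% are shared on the same strand with another annotated gene that had 0 counts, so its level depends on how reads there were assigned, which is not given in the sources used here.

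RefSeq promoters of the GRCh38.p14 build, 300 bases each, were found for 44 of the 50 genes. Of the 5 printed here, those of FANCA, TOPBP1 and MSH6 do not include the gene start annotated in GENCODE. Nor do those of some other genes, such as FANCC, RBBP8 and RAD52. The letters TTTCCCGC, TTTCGCGC, TTTGCCGC or TTTGGCGC on either strand, which spell the E2F element of S phase genes, occurred in 9 of these 44 promoters (20.5%) and in 3.33% of all 27305 promoters. The 5 promoters printed here hold those letters, shown in capitals, and belong to 3 genes that fell with indisulam (FANCD2, FANCA, TOPBP1) and 2 that rose (EXO1, MSH6), each read 5′ to 3′ on the gene's strand. They lie at chr3:10026187-10026486 on the plus strand for FANCD2, chr16:89816598-89816897 on the minus strand for FANCA, chr3:133661892-133662191 on the minus strand for TOPBP1, chr1:241847954-241848253 on the plus strand for EXO1 and chr2:47782895-47783194 on the plus strand for MSH6.
FANCD2: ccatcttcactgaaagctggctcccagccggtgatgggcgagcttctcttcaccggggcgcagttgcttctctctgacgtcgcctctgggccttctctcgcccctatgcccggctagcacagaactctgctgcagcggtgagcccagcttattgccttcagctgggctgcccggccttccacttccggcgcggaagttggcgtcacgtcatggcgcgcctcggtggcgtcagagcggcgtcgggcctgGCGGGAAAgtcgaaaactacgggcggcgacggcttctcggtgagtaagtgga
FANCA: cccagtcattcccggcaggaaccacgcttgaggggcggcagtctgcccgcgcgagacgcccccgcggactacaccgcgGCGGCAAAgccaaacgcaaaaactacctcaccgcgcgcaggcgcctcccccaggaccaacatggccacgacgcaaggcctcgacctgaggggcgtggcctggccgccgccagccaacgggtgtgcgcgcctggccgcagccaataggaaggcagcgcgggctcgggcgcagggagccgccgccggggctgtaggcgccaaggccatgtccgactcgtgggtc
TOPBP1: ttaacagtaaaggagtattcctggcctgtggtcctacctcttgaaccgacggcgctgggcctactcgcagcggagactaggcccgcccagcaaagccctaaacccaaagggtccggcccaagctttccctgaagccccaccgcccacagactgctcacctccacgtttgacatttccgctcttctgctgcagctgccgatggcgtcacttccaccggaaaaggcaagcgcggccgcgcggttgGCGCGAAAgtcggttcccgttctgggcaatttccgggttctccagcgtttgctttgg
EXO1: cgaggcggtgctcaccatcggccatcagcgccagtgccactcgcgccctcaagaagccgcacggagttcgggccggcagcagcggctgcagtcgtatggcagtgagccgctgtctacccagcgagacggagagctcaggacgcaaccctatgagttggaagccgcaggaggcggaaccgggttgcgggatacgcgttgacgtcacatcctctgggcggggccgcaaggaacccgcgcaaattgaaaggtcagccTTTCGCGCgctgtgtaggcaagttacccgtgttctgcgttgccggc
MSH6: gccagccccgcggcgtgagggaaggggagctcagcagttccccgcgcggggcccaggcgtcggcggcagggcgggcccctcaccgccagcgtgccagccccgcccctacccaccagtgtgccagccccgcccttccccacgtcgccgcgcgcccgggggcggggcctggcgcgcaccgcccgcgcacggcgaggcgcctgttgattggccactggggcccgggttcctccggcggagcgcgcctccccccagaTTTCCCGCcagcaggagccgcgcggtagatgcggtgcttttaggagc
The letters were present in promoters of genes that moved in either direction. Among the genes with a promoter, 4 of 13 that rose with indisulam, 3 of 12 that fell and 2 of 19 that did not pass the test held them. The remaining genes with these letters were XRCC2, FANCC, XRCC6 and PMS2. The cell cycle element TTTGAA was found in 6 of the 44 promoters (13.6%, against 15.4% of all), and CCAAT in 22 (50%, against 35.7%). A match of letters describes the sequence and does not show a factor bound there.

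With indisulam, the repair genes did not move as a block. 29 of 50 passed the test (58%), 15 of them higher and 14 lower, while 43.7% of all 18661 genes tested passed, 20.1% higher and 23.5% lower. The median log2 fold change of the 50 genes was -0.02, against a median of 0.00 for all genes tested. Without adjustment, 30 of the 50 had a p under 0.05, as had 51.2% of all genes tested. The log2 fold changes of the 50 genes ran from -0.88 for FANCL to 0.60 for RAD51D. Passing means an adjusted p under 0.05 in the quasi-likelihood test of edgeR, after Benjamini-Hochberg adjustment over all genes tested, and each log2 fold change is followed by its standard error.

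**Figure D1:**
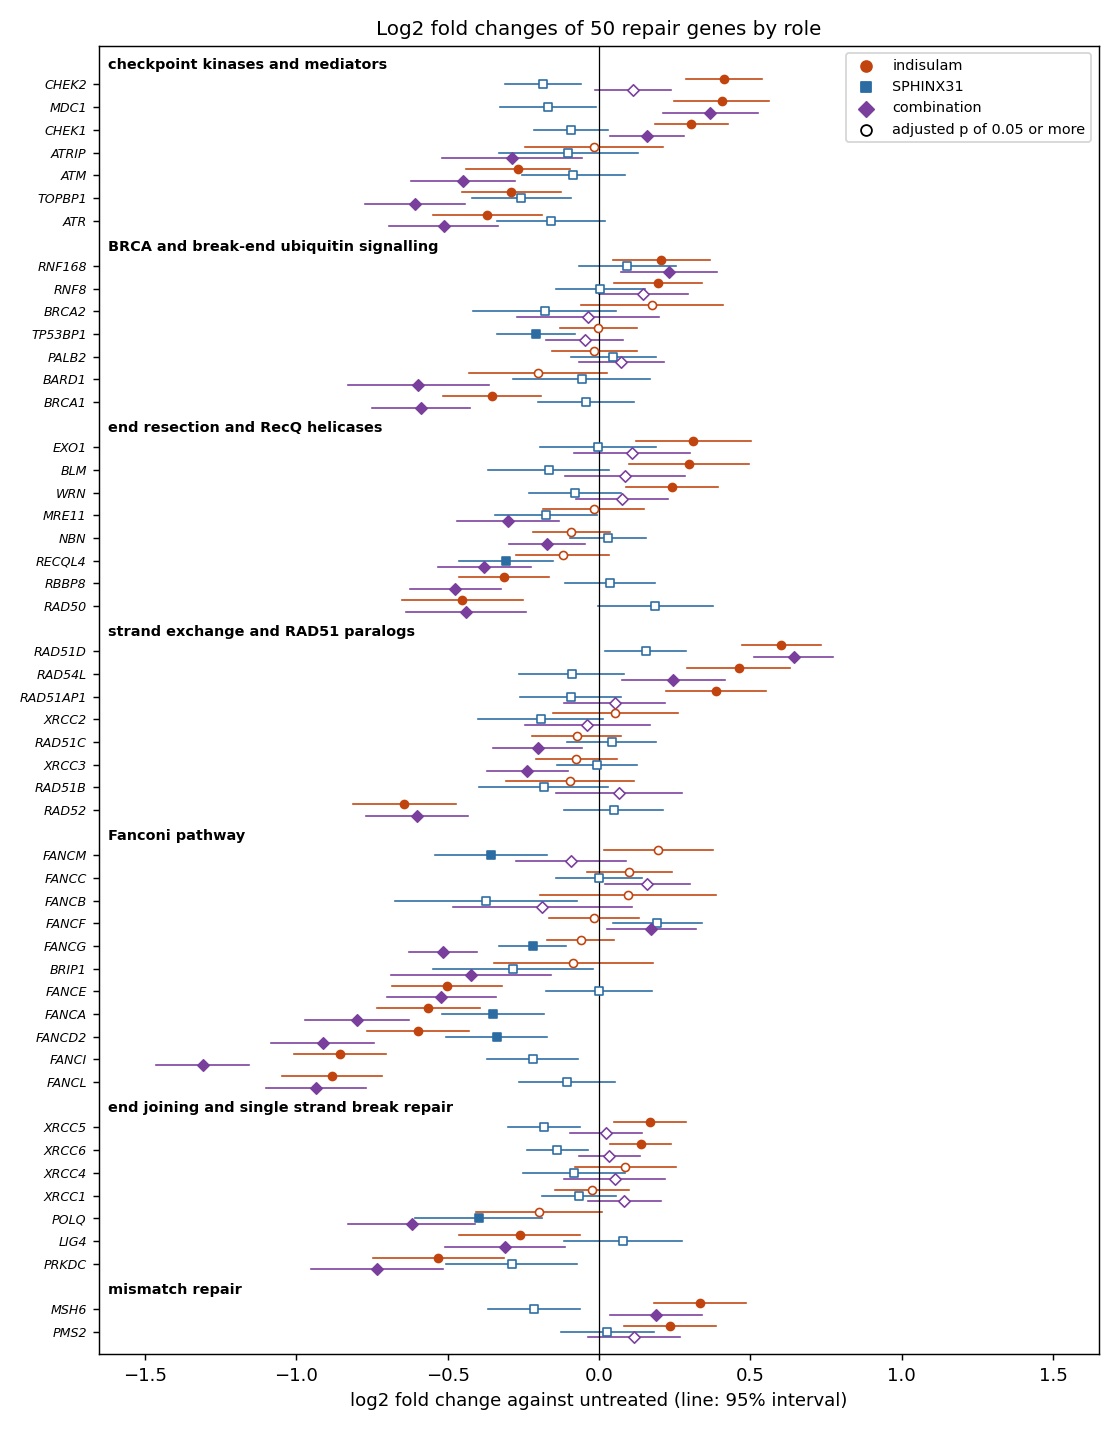
Log2 fold change (x axis) of each of the 50 repair genes (y axis, grouped by role) with indisulam, SPHINX31 or both against untreated cells, 2 libraries a group. Lines are 95% intervals, and filled symbols passed the test. FANCI and FANCL lie farthest to the left, and RAD51D farthest to the right.

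Of the 11 Fanconi pathway genes, 5 fell with indisulam (45.5%) and 0 rose, against 23.5% and 20.1% of all genes tested. FANCL (ENSG00000115392, GRCh38 chromosome 2, 58159243 to 58241410), the ubiquitin ligase of the core complex, was 26.8 and 27.1 CPM in untreated cells and 14.6 and 14.6 CPM with indisulam. With SPHINX31 it was 24.7 and 25.4 CPM, and with both compounds 15.2 and 13.0 CPM. Every library with indisulam was below every library without it, and the log2 fold change with indisulam was -0.88 ± 0.08 (adjusted p = 1.15e-06), a decrease of 45.8%.

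FANCI (ENSG00000140525, chromosome 15, 89243945 to 89317261), a target of that ligase, was 209 and 214 CPM in untreated cells, 122 and 112 CPM with indisulam, 167 and 197 CPM with SPHINX31 and 87.6 and 83.4 CPM with both. The 4 groups did not overlap, and the combination lay lowest. The log2 fold change was -0.86 ± 0.07 with indisulam (adjusted p = 7.21e-07), -0.22 ± 0.07 with SPHINX31 (adjusted p = 0.0692, not passed) and -1.31 ± 0.07 with both (adjusted p = 1.12e-08), the latter a decrease of 59.7%. Its partner FANCD2 (ENSG00000144554, chromosome 3, 10026370 to 10101932) was 68.9 and 72.3 CPM untreated, 49.7 and 43.5 CPM with indisulam, 52.04 and 59.7 CPM with SPHINX31 and 39.1 and 35.9 CPM with both. The FANCD2 libraries of each treatment all lay below the untreated libraries, with changes of -0.60 ± 0.08, -0.34 ± 0.08 and -0.91 ± 0.08. FANCD2 has near-identical pseudogene copies in the genome, so reads may have been split between them.

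FANCA, a scaffold of the core complex (ENSG00000187741, chromosome 16, 89726683 to 89816977), was 56.6 and 58.5 CPM in untreated cells, 40.6 and 37.2 CPM with indisulam, 41.8 and 48.5 CPM with SPHINX31 and 35.1 and 31.0 CPM with both. All treated libraries were below the untreated ones, and the changes were -0.56 ± 0.08, -0.35 ± 0.08 and -0.80 ± 0.08. Of the exonic bases of FANCA, 19.6% overlap ZNF276 on the opposite strand, and the strand setting of the counting is not given in the sources used here. FANCE, which links the core complex to FANCD2, was 9.35 and 9.64 CPM untreated, 6.57 and 6.85 CPM with indisulam, 9.50 and 9.49 CPM with SPHINX31 and 6.79 and 6.45 CPM with both. It was low in the 4 libraries with indisulam and level in the other 4, with a change of -0.50 ± 0.08 with indisulam.

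The other Fanconi genes did not pass the test with indisulam. FANCB, FANCC and FANCM, core complex or associated subunits, had log2 fold changes of 0.10 ± 0.14, 0.10 ± 0.07 and 0.20 ± 0.08. FANCF and FANCG, core complex adaptors, had -0.02 ± 0.07 and -0.06 ± 0.05, and the helicase BRIP1 had -0.08 ± 0.12. The decreases touched the ligase, its FANCD2 and FANCI substrates, FANCA and FANCE, and the measured changes of the other 6 genes were between -0.08 and 0.20.

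**Figure D2:**
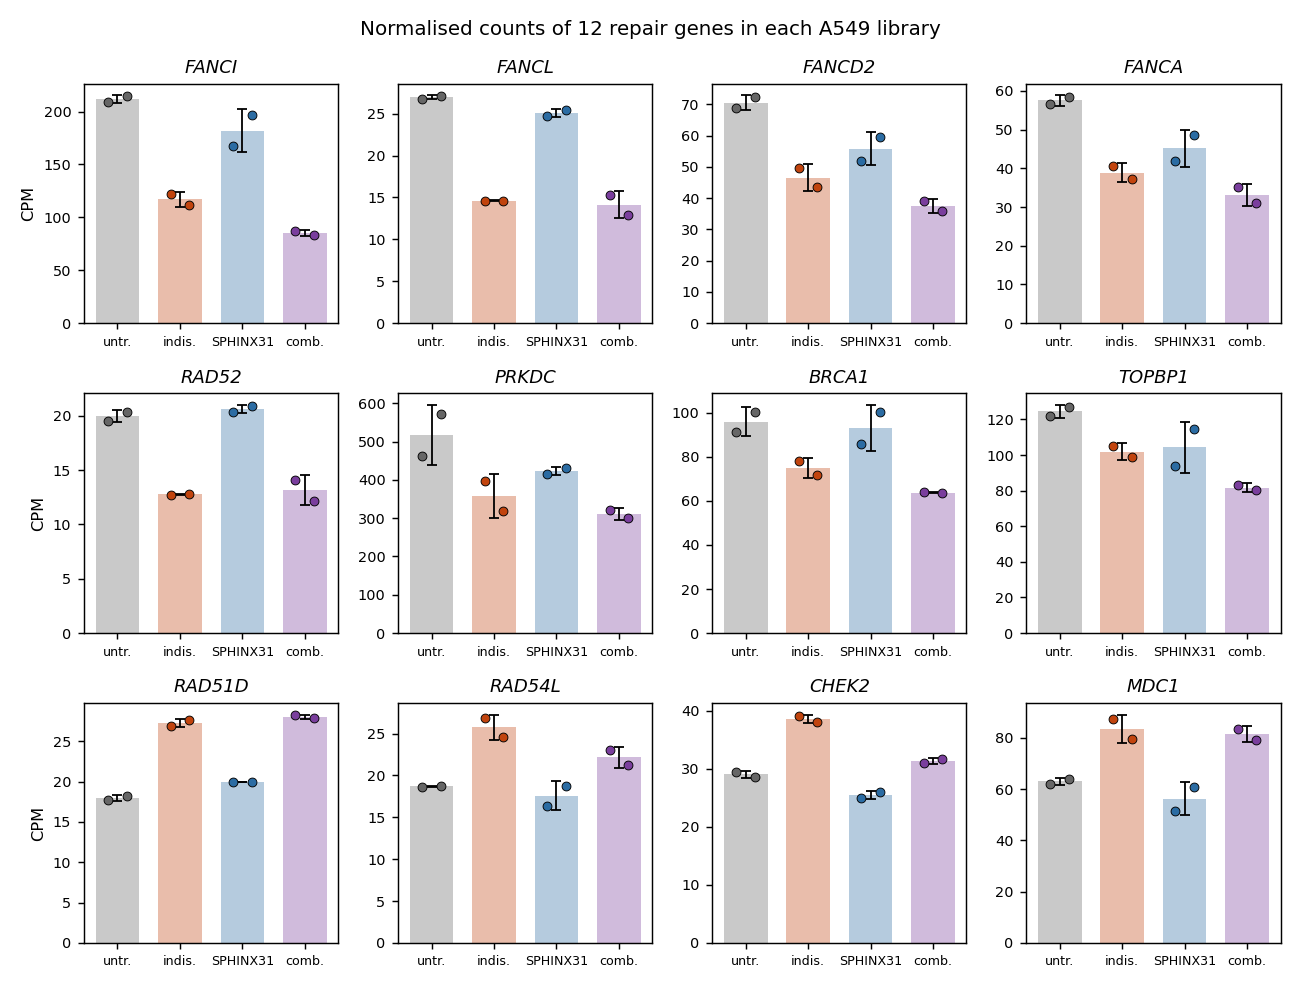
CPM (y axis, linear from 0) of 12 repair genes in the 8 libraries of untreated (untr.), indisulam (indis.), SPHINX31 and combination (comb.) cells. Points are libraries, bars are means and error bars are SD (n = 2). FANCI is lowest with both compounds, at 87.6 and 83.4 CPM, and RAD51D is highest in the 4 libraries with indisulam.

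Of the 7 checkpoint genes, 3 fell with indisulam and 3 rose (42.9% each), against 23.5% and 20.1% of all genes tested. ATR, the kinase of stalled forks, was 61.8 and 68.6 CPM untreated and 54.4 and 46.6 CPM with indisulam, a change of -0.37 ± 0.08 with no overlap. ATM, the kinase of DNA breaks, changed by -0.27 ± 0.08 and TOPBP1, the activator of ATR, by -0.29 ± 0.08. CHEK1 was 51.6 and 51.7 CPM untreated and 63.3 and 64.4 CPM with indisulam (0.31 ± 0.06), and CHEK2 was 29.5 and 28.5 CPM untreated and 39.1 and 38.1 CPM with indisulam (0.41 ± 0.06). MDC1, which docks on marked chromatin at breaks, rose from 62.1 and 64.0 CPM to 87.4 and 79.5 CPM (0.40 ± 0.07). In CHEK1, CHEK2 and MDC1 both indisulam libraries exceeded all untreated and SPHINX31 libraries, and ATRIP, the partner of ATR, did not pass (-0.02 ± 0.11).

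In the BRCA and break-end signalling group, BRCA1, the ubiquitin ligase that promotes resection, was 91.4 and 101 CPM in untreated cells, 78.4 and 71.8 CPM with indisulam, 85.7 and 101 CPM with SPHINX31 and 64.0 and 63.6 CPM with both. The libraries with indisulam were below the others, and the change with indisulam was -0.35 ± 0.07 (adjusted p = 0.00183). RNF8 and RNF168, ubiquitin ligases that mark chromatin at breaks, rose by 0.19 ± 0.07 and 0.21 ± 0.07. BARD1, PALB2, BRCA2 and TP53BP1 did not pass, with changes of -0.20, -0.02, 0.18 and 0.00.

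For resection, RAD50 was 8.62 and 7.75 CPM untreated and 5.90 and 6.08 CPM with indisulam (-0.45 ± 0.09), and RBBP8, the CtIP cofactor that starts resection, fell by 0.31 on the log2 scale. The other subunits of the RAD50 complex did not pass, MRE11 at -0.02 ± 0.08 and NBN at -0.09 ± 0.06. The nuclease EXO1, which extends resection, rose from 35.3 and 38.8 CPM to 47.4 and 44.4 CPM (0.31 ± 0.09). The RecQ helicases BLM and WRN rose by 0.30 ± 0.09 and 0.24 ± 0.07, whereas RECQL4 did not pass (-0.12 ± 0.07).

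Strand exchange genes held the largest increase with indisulam and, in RAD52, a decrease of similar size. RAD51D (ENSG00000185379, chromosome 17, 35092221 to 35121522), a strand exchange paralog, was 17.7 and 18.2 CPM untreated, 26.9 and 27.6 CPM with indisulam, 19.99 and 19.95 CPM with SPHINX31 and 28.2 and 27.8 CPM with both. The 4 libraries with indisulam lay above the other 4, and the change was 0.60 ± 0.06 (adjusted p = 4.38e-06), an increase of 51.9%. RAD52 (ENSG00000002016, chromosome 12, 911736 to 990053), which anneals single strands, was 19.6 and 20.3 CPM untreated, 12.7 and 12.8 CPM with indisulam, 20.4 and 20.9 CPM with SPHINX31 and 14.1 and 12.2 CPM with both. Its libraries split the opposite way, with a change of -0.64 ± 0.08 (adjusted p = 2.36e-05).

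RAD54L, a motor that helps strand invasion, was 18.7 and 18.7 CPM untreated and 26.8 and 24.6 CPM with indisulam (0.46 ± 0.08). RAD51AP1, a stimulator of strand invasion, was 30.1 and 32.4 CPM untreated and 42.5 and 39.2 CPM with indisulam (0.39 ± 0.08). In both genes the indisulam libraries exceeded the untreated ones, though 19.9% of the exonic bases of RAD54L overlap LRRC41 on the opposite strand. RAD51B, RAD51C, XRCC2 and XRCC3 did not pass, with changes between -0.09 and 0.05, and 76.7% of the exonic bases of XRCC3 overlap KLC1 on the opposite strand.

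In end joining, PRKDC, the catalytic subunit of DNA-PK, was 461 and 573 CPM untreated, 398 and 317 CPM with indisulam, 415 and 431 CPM with SPHINX31 and 322 and 300.1 CPM with both. PRKDC had the widest gap between duplicates of all 50 genes in the untreated and in the indisulam group. Its untreated and indisulam libraries still did not overlap (-0.53 ± 0.10, adjusted p = 0.000835), while its indisulam and combination libraries did. LIG4, the ligase of end joining, fell by 0.26 on the log2 scale, and the Ku subunits XRCC5 and XRCC6 rose by 0.17 ± 0.06 and 0.14 ± 0.05. XRCC4, XRCC1 and POLQ did not pass. The mismatch repair gene MSH6 was 128 and 135 CPM untreated and 169 and 161 CPM with indisulam (0.33 ± 0.07), and PMS2 changed by 0.23 ± 0.07. FBXO11 covers 22.7% of the exonic bases of MSH6 on the opposite strand, and PMS2 and CHEK2 have near-identical pseudogene copies.

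Of the 29 genes that passed with indisulam, 18 kept their call under each of 18 alternative settings, and the other 11 lost it in at least 1. The latter were ATM, TOPBP1, RNF8, RNF168, BLM, EXO1, WRN, LIG4, XRCC5, XRCC6 and PMS2, and with the replicate numbers as a block the call of RNF168 was lost. Without untreated replicate 1, 7 genes were higher and 13 lower, and without indisulam replicate 1, 7 were higher and 15 lower.

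Several of the genes that fell with indisulam have many exons. Of the 8 genes with 30 or more exons in the canonical transcript, 6 fell and 1 rose: ATM, ATR, FANCA, FANCD2, FANCI and PRKDC fell, WRN rose and POLQ did not pass. That is 75% lower, against 44.6% of the 746 protein-coding genes tested with as many exons. Of the 8 genes with 1 to 9 exons, 1 fell (12.5%, against 18.9% of 7326 protein-coding genes). In the middle classes, with 34 of the 50 genes, the share that fell was below that of protein-coding genes: 17.4% against 28.4% for 10 to 19 exons and 27.3% against 34.4% for 20 to 29. The Spearman correlation between exon number and log2 fold change was -0.32 over the 50 genes and -0.15 over 14010 protein-coding genes. Other features were also correlated: transcript length gave -0.06, GC content 0.02 and gene span -0.23 over the 50 genes. The cause of these correlations was not tested. All these genes share the same libraries. With SPHINX31 the correlation with exon number was -0.48 over the 50 genes and -0.07 over protein-coding genes, and with both compounds -0.45 and -0.19. Of the 8 genes with 30 or more exons, 37.5% fell with SPHINX31, against 5.09% of protein-coding genes, and 87.5% with both, against 49.5%. With indisulam, FANCL, RAD52 and FANCE, with 14, 12 and 10 exons, changed by -0.88, -0.64 and -0.50. In the 6 genes with 30 or more exons that fell, the changes ran from -0.27 for ATM to -0.86 for FANCI.

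With SPHINX31, no repair gene rose and 7 of 50 fell (14%), while 8.61% of all genes tested passed, 4.94% higher and 3.67% lower. The median log2 fold change of the 50 genes was -0.10, and that of all genes tested was -0.01. 4 of the 7 were Fanconi genes: FANCA, FANCD2, FANCG and FANCM. The others were RECQL4, TP53BP1 and POLQ, the polymerase of microhomology-mediated end joining.

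POLQ (ENSG00000051341, chromosome 3, 121431431 to 121545988) was 44.5 and 49.4 CPM untreated and 32.5 and 38.7 CPM with SPHINX31, without overlap (-0.40 ± 0.10, adjusted p = 0.0218). FANCM, the translocase that brings the core complex to chromatin, was 14.7 and 15.1 CPM untreated, 10.5 and 12.7 CPM with SPHINX31, 17.1 and 17.0 CPM with indisulam and 14.0 and 14.0 CPM with both. The SPHINX31 libraries lay lowest and the indisulam libraries highest, and the change with SPHINX31 was -0.36 ± 0.09 (adjusted p = 0.0209). FANCG was 70.8 and 71.2 CPM untreated, 59.998 and 61.9 CPM with SPHINX31, 68.2 and 68.1 CPM with indisulam and 50.9 and 48.5 CPM with both. Its SPHINX31 libraries were below the untreated ones (-0.22 ± 0.05, adjusted p = 0.0184), and its combination libraries were lower still.

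RECQL4, a helicase of replication origins, was 42.5 and 41.9 CPM untreated and 32.7 and 35.5 CPM with SPHINX31 (-0.31 ± 0.07). TP53BP1, which shields broken ends from resection, was 59.7 and 64.1 CPM untreated and 52.5 and 54.7 CPM with SPHINX31 (-0.21 ± 0.06, adjusted p = 0.0476). In both genes the SPHINX31 libraries were below the untreated ones. The RECQL4 call was lost in 3 and the TP53BP1 call in 8 of 18 alternative settings, the latter also with the replicate block. Of the exonic bases of TP53BP1, 28.8% overlap TUBGCP4 on the opposite strand.

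The duplicates of each group differed in these genes, most in SPHINX31, where 46 of 50 were lower in replicate 1 than in replicate 2, with a median log2 difference of -0.16, while 52.03% of all genes tested were lower there. In untreated cells 37 of 50 were lower in replicate 1, against 50.7% of all genes. In the other groups more of the 50 were higher in replicate 1: 13 of 50 were lower with indisulam and 16 of 50 with both, against 48.5% and 48.9% of all genes. The SPHINX31 calls depended on single libraries: 0 of the 7 were kept under each of 18 alternative settings, among them leaving out each library. Losses came without SPHINX31 replicate 1 and without untreated replicate 2, among others. Leaving out a library also moved the number of all genes tested that passed. Over the 18 settings the change of POLQ ran from -0.53 to -0.28, of FANCA from -0.46 to -0.25 and of TP53BP1 from -0.26 to -0.16. With all libraries, 20 of the 50 genes had an unadjusted p under 0.05, as had 24.1% of all genes tested.

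S phase and proliferation genes moved in the same libraries. Of 18 such genes, 10 fell and 0 rose with SPHINX31, against 3.67% and 4.94% of all genes tested. How the calls of this list depend on single libraries was not tested, in this or the later comparisons. Their median log2 fold change was -0.24. The E cyclins led. CCNE2 was 6.65 and 6.02 CPM untreated and 3.86 and 5.13 CPM with SPHINX31. CCNE1 was 13.7 and 13.6 CPM untreated and 10.2 and 10.9 CPM with SPHINX31. Fewer cycling cells and less RNA per cell cannot be told apart in these libraries, and the part of the proliferation genes in the repair result was not tested.

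With both compounds, more repair genes fell: 24 of 50 were lower (48%) and 7 higher (14%) than in untreated cells, while 50% of all genes tested passed, 26.3% lower and 23.8% higher. The median log2 fold change of the 50 genes was -0.13, against 0.00 for all genes tested, and 33 of the 50 had an unadjusted p under 0.05, as had 55.9% of all genes tested. The combination and each single treatment were compared with the same untreated libraries. Lower genes included those 14 that fell with indisulam and 10 more: ATRIP, BARD1, MRE11, NBN, RECQL4, RAD51C, XRCC3, FANCG, BRIP1 and POLQ. Of the exonic bases of ATRIP, 26.7% are shared on the same strand with TREX1, which had 0 counts. The level of ATRIP therefore depends on how reads there were assigned.

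FANCI, FANCL, FANCD2 and FANCA led the decreases, with log2 fold changes of -1.31 ± 0.07, -0.93 ± 0.08, -0.91 ± 0.08 and -0.80 ± 0.08, followed by PRKDC at -0.73 ± 0.10. Of the 11 Fanconi genes, 7 fell and 1 rose, against 26.3% and 23.8% of all genes tested. The gene that rose was FANCF, at 15.5 and 15.4 CPM untreated and 17.4 and 17.5 CPM with both (0.17 ± 0.07, adjusted p = 0.0487). FANCF was also 17.6 and 17.8 CPM with SPHINX31 alone, which did not pass (0.19 ± 0.07, adjusted p = 0.0996). Its combination call was lost in 9 of 18 alternative settings, among them the replicate block and DESeq2.

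POLQ was 32.0 and 29.1 CPM with both (-0.62 ± 0.10), lower than in any other group. TOPBP1 was 122 and 127 CPM untreated, 105 and 98.8 CPM with indisulam, 94.0 and 115 CPM with SPHINX31 and 83.4 and 80.1 CPM with both. Its combination libraries lay below the rest (-0.61 ± 0.08), while the single treatments overlapped. BRCA1 and its partner BARD1 fell by similar amounts, -0.59 ± 0.08 and -0.60 ± 0.11, and in BARD1 the combination libraries, at 10.5 and 10.3 CPM, were below the untreated libraries at 14.97 and 16.6 CPM.

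The 7 genes that rose with both were RAD51D (0.64 ± 0.06), MDC1 (0.37 ± 0.07), RAD54L (0.25 ± 0.08), RNF168 (0.23 ± 0.07), MSH6 (0.19 ± 0.07), FANCF and CHEK1 (0.16 ± 0.06). MDC1 stood at 83.6 and 79.1 CPM, close to its level with indisulam. RAD54L was 23.0 and 21.3 CPM, between untreated and indisulam cells. RNF168 was 17.5 and 16.6 CPM untreated and 19.5 and 20.5 CPM with both, without overlap. MSH6 was 151 and 148 CPM and CHEK1 56.5 and 58.9 CPM with both, all above untreated cells.

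Of the 31 genes that passed, 20 kept their call under each of 18 alternative settings. The other 11 were ATRIP, NBN, RAD51C, XRCC3, BRIP1, LIG4, CHEK1, RAD54L, RNF168, MSH6 and FANCF, and the ATRIP call was lost with the replicate block. Without untreated replicate 2, 2 genes were higher and 21 lower, without untreated replicate 1, 3 and 21, without combination replicate 1, 4 and 22, and without combination replicate 2, 3 and 20.

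Adding SPHINX31 to indisulam lowered 10 repair genes and raised none. The combination against indisulam alone gave 10 of 50 lower (20%), while 7.50% of all genes tested passed, 4.32% lower and 3.17% higher, and the median log2 fold change was -0.15 for the 50 genes. Without adjustment, 26 of the 50 had a p under 0.05, as had 22.2% of all genes tested. FANCG (-0.46 ± 0.05, adjusted p = 0.000257) and FANCI (-0.45 ± 0.07, adjusted p = 0.00211) changed most, and they were the only genes of the 10 that kept the call under each of 18 alternatives. POLQ (-0.42 ± 0.10), BARD1 (-0.40 ± 0.11), RAD51AP1 (-0.34 ± 0.08), TOPBP1 (-0.32 ± 0.08), FANCD2 (-0.31 ± 0.08), CHEK2 (-0.30 ± 0.06), MRE11 (-0.28 ± 0.08) and RECQL4 (-0.26 ± 0.07) also passed.

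CHEK2 and RAD51AP1 had risen with indisulam alone, but both comparisons use the same indisulam libraries, with opposite sign. CHEK2 was 31.0 and 31.7 CPM and RAD51AP1 32.1 and 32.7 CPM with both, below the indisulam libraries and near the untreated ones. Their departures from the sum of the single log2 fold changes were -0.12 ± 0.08 and -0.24 ± 0.11, and neither passed. With the replicate block 6 of the 10 genes remained, as the calls of BARD1, MRE11, FANCD2 and RECQL4 were lost. Without indisulam replicate 1, 2 genes passed, without combination replicate 1 or 2, 3 passed, and without untreated replicate 1 or 2, 7 passed. S phase and proliferation genes moved in the same direction, 6 of 18 lower and 0 higher, against 4.32% and 3.17% of all genes tested. Their median was -0.21, and their part in the repair result was not tested.

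**Figure D3:**
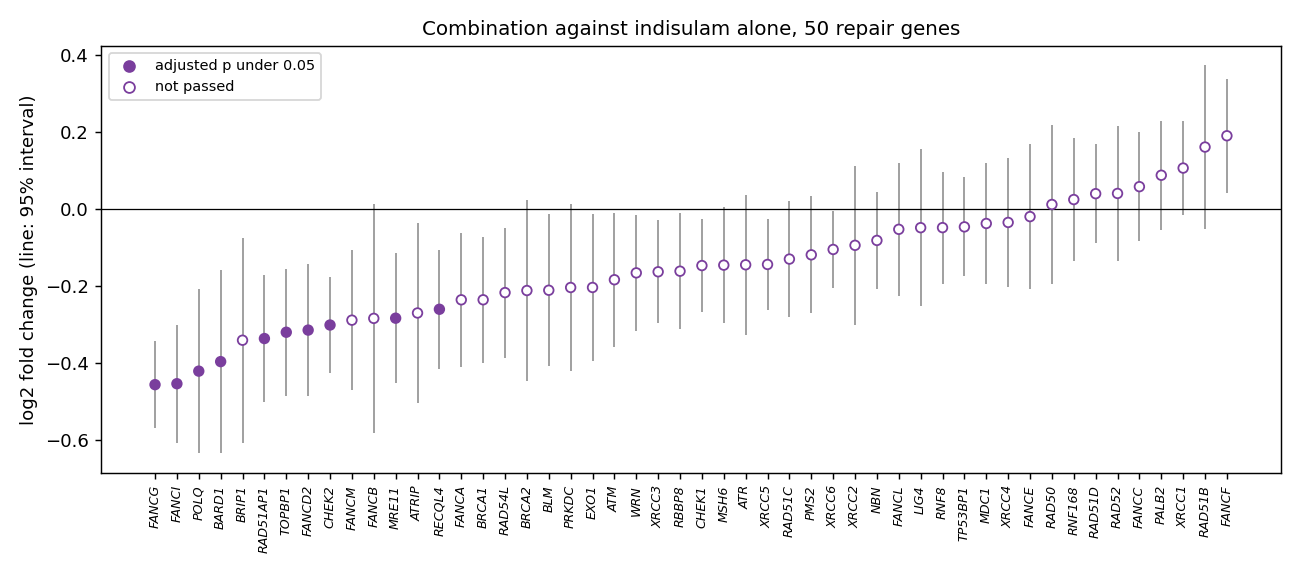
Log2 fold change (y axis) of the combination against indisulam alone for the 50 repair genes, in order along the x axis, 2 libraries a group. Lines are 95% intervals and filled points passed the test, all 10 of them below 0, with FANCG (-0.46) and FANCI (-0.45) lowest.

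The combination against SPHINX31 alone, the effect of indisulam in cells that had the kinase inhibitor, gave 12 genes higher and 19 lower of 50, while 49.9% of all genes tested passed, 23.4% higher and 26.5% lower. Unadjusted, 35 of the 50 and 56.0% of all genes had a p under 0.05. FANCI (-1.09 ± 0.07), FANCL (-0.83 ± 0.08), RAD52 (-0.65 ± 0.08) and RAD50 (-0.62 ± 0.09) fell most. MDC1 (0.54 ± 0.07) and RAD51D (0.49 ± 0.06) rose most. TP53BP1 (0.16 ± 0.06) and XRCC1, the scaffold of single strand break repair (0.15 ± 0.06), passed as higher here, and both calls were lost with the replicate block, TP53BP1 in 7 and XRCC1 in 11 of 18 alternative settings. Of the 31 calls, 20 were kept under each of the 18, and ATR, BLM, NBN, RAD51C, XRCC3, FANCM, LIG4, XRCC5 and XRCC6 also lost theirs in at least 1. Without combination replicate 2, 6 genes were higher and 18 lower.

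Whether the combination differed from the sum of the single log2 fold changes was tested as an interaction. 0 of 50 repair genes and 0 of 18661 genes passed in edgeR's test. Without adjustment, 6 of the 50 had a p under 0.05, as had 8.49% of all genes tested, and DESeq2 called 31 genes, none of them among the 50. The largest departures were -0.34 ± 0.15 for BARD1 (95% interval -0.67 to -0.01) and 0.34 ± 0.14 for RAD51B (0.04 to 0.64). For FANCI the departure was -0.23 ± 0.10 (-0.45 to -0.02) and for FANCG -0.24 ± 0.07 (-0.39 to -0.08), and intervals of this width do not show that the effects were additive.

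Outside the 50 genes, 116 of 118 other genes of the damage response were tested, in 9 lists, and with indisulam 26 of them rose (22.4%) and 34 fell (29.3%), near the 20.1% and 23.5% of all genes tested. The counts of the single lists that follow are to be read against the same shares, and nothing is called particular to a list from them. HUS1, a subunit of the clamp that activates ATR, showed the largest increase in the list of clamp and fork protection genes, from 14.5 and 15.8 CPM to 29.4 and 29.8 CPM with indisulam (0.96 ± 0.07), and CDC25C, a phosphatase of mitotic entry, the largest decrease (-0.81 ± 0.07). This list had 3 higher and 3 lower of 12. The Fanconi partners had 2 higher and 2 lower of 12, led by CENPS, a histone fold partner of FANCM (-0.99 ± 0.18, at most 1.78 CPM), and WDR48, a cofactor of the deubiquitinase of FANCD2 (0.33 ± 0.06).

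Homologous recombination and junction resolution had 6 higher and 7 lower of 18. ABRAXAS1, a scaffold of a BRCA1 complex, was 17.8 and 19.1 CPM untreated and 9.84 and 10.5 CPM with indisulam (-0.86 ± 0.08), and EME2, a partner of the MUS81 nuclease, rose (0.76 ± 0.14). End joining and resection block had 1 higher and 4 lower of 10, led by the shieldin subunits SHLD1 (-0.76 ± 0.13) and SHLD2 (-0.76 ± 0.07), which limit resection. Translesion synthesis had 0 higher and 4 lower of 9, led by PRIMPOL, which restarts stalled forks (-0.75 ± 0.09), and HLTF, a fork remodeller (-0.53 ± 0.06).

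Excision repair lists were mixed. Nucleotide excision repair had 4 higher and 7 lower of 19, led by GTF2H1, a subunit of the TFIIH complex, which was 33.1 and 37.2 CPM untreated and 16.7 and 16.1 CPM with indisulam (-1.10 ± 0.07), and by the lesion sensor XPC (-0.75 ± 0.06). GTF2H1 rose with SPHINX31 alone (0.31 ± 0.07). Base excision and single strand break repair had 5 higher and 3 lower of 19, led by OGG1, the glycosylase of oxidised guanine (-0.69 ± 0.08), and LIG3, a ligase of that pathway (-0.46 ± 0.06). Mismatch repair had 2 higher and 0 lower of 5, MLH3 (0.53 ± 0.06) and MSH4 (2.51 ± 0.40), a meiotic gene that stayed at or below 0.774 CPM in every library.

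Of the p53 targets of the damage response, with indisulam 3 of 12 rose and 4 fell, against 20.1% and 23.5% of all genes tested. With SPHINX31 4 of 12 rose and 1 fell, against 4.94% and 3.67% of all genes, and with both 7 rose and 1 fell, against 23.8% and 26.3%. GADD45A, a stress sensor, was 24.4 and 23.7 CPM untreated, 19.4 and 18.9 CPM with indisulam, 47.6 and 41.0 CPM with SPHINX31 and 24.5 and 29.02 CPM with both. It rose with SPHINX31 (0.88 ± 0.09), fell with indisulam (-0.33 ± 0.09) and did not pass with both (0.15 ± 0.09). TP53INP1 rose most with both (0.80 ± 0.10), and the pro-apoptotic BBC3 rose with SPHINX31 (0.47 ± 0.11) and with both (0.44 ± 0.11).

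With both compounds, S phase and proliferation genes fell in 9 of 18 and rose in 1, against 26.3% and 23.8% of all genes tested. TOP2A, 1 of the 18 and the topoisomerase of mitotic chromosomes, was 629 and 685 CPM untreated and 355 and 330 CPM with indisulam. It was 534 and 613 CPM with SPHINX31 and 239 and 238 CPM with both. With indisulam alone the list had 6 higher and 3 lower, against 20.1% and 23.5% of all genes tested. Its median log2 fold change was then 0.12, with a range of -0.94 to 0.30. The part of the list in the repair results was not tested.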

How the data were processed

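RNA was prepared from A549 cells, and polyadenylated RNA was made into stranded libraries. The authors deposited raw counts of reads on each of 60624 Ensembl genes for 8 libraries, without normalization. The submitters' processing notes name HISAT2 2.2.1, HTSeq and GRCh38. The annotation and strand setting of the counting are not given in the sources used here. Entries for reads outside annotated features, ambiguous reads and reads without a unique alignment (14.0% to 17.0% of the reads recorded) were left out of library sizes and tests.

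Gene names, positions and exon numbers came from GENCODE 44 on GRCh38. The software was edgeR 4.0.16 with limma 3.58.1, and DESeq2 1.42.0 for an alternative, under R 4.3.3. Results were tabulated with Python 3.11.15, pandas 2.3.3, scipy 1.17.1 and matplotlib 3.10.9. Genes were filtered with filterByExpr, which left 18661, and scaled by TMM (factors 0.978 to 1.02). All 8 libraries of the 4 groups, grouped by the treatment in their labels, were fitted together, with 4 residual degrees of freedom, and contrasts were tested by quasi-likelihood in edgeR, with p-values adjusted over all genes tested by the Benjamini-Hochberg procedure and a threshold of 0.05. The interaction is the indisulam effect with SPHINX31 minus that without. The procedure was tested on simulated data. Depth was 51727369 to 63186989 counts on genes per library, and standard errors cover counting error and the spread between technical duplicates.

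The 50 genes and all lists were chosen with earlier results of these data known. Every listed gene that passed could be named, values per library were given for up to 8 genes with the largest decrease and 8 with the largest increase against untreated cells among those that passed, and up to 2 genes were named from each further list. Genes given beyond these were chosen after their values were seen. The alternatives were RLE size factors, total counts alone, DESeq2, filters of at least 1 count in any library or 10 in every library, only the groups compared, a replicate block, GC offsets in 50 bins of genes with and without the block, and leaving out each library. Without a library its group holds a single library, which is assumed to vary like the other groups. The number of all genes that passed moved between these fits too, so counts of the 50 from them do not describe the 50 alone. Exon usage was not analysed here.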

Additional observations from a re-analysis of the deposited data

Results flagged for a closer look

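Reads outside annotated features, which no comparison above used, made up a larger share of the reads recorded in each library with indisulam than in the untreated libraries, at 3.94% and 4.34%. They were 5.48% in indisulam replicate 1, 4.49% in indisulam replicate 2, 5.88% in combination replicate 1 and 4.87% in combination replicate 2. In the SPHINX31 libraries the share was 3.67% and 3.93%.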

How the results depend on the processing

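No log2 fold change of a gene that passed changed direction under any alternative. Over the 108 called values of the 50 genes, 1773 of the recomputed values kept their side of the threshold and 171 lost it. The cause was not tested for any of the changes below. Of the genes tested, 1606 passed with SPHINX31, and 2805 with GC offsets, 2436 with GC offsets and the block, and 2630 with the exchanged block. Of the 50 repair genes, 7 passed with SPHINX31, all lower, and 11 with DESeq2 and 14 with at least 1 count in any library. The count was 14 with the exchanged block and 15 with GC offsets, with or without the block. For SPHINX31, the number of all genes that passed with DESeq2 or with at least 1 count is not given here. Scaled by total counts alone, 1 of the 50 was higher with SPHINX31. For the combination against indisulam 1399 genes passed, and 2341 with GC offsets and 2252 with the exchanged block. Of the 50, 10 passed, all lower, and 6 by total counts alone and 16 with at least 1 count. The interaction, with 0 genes, gave 31 with DESeq2, 94 with at least 1 count, 12 with GC offsets and 12 with the exchanged block. Scaling by total counts moved the higher share of calls from 57.3% to 72.3% with SPHINX31 and from 42.3% to 65.4% for the combination against indisulam.

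Leaving out each library in turn gave 7 to 16 repair genes higher with indisulam, 0 to 16 lower with SPHINX31, 2 to 8 higher with both, 2 to 14 lower for the combination against indisulam and 6 to 16 higher for the combination against SPHINX31. Over all genes it gave 482 to 1810 with SPHINX31, 440 to 1612 for the combination against indisulam and 0 to 1 for the interaction.

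Replicate numbers were tried as a block. Deviations of replicate 1 from its group mean correlated at -0.57 between untreated and indisulam libraries, 0.45 between untreated and SPHINX31 and -0.49 between indisulam and SPHINX31 over 9946 genes, so the numbers were not taken to pair the libraries. The block gave 7851 genes with indisulam, 1330 with SPHINX31, 9077 with both and 1169 for the combination against indisulam, where 6 of the 50 passed. Exchanging the numbers of the indisulam libraries, chosen after the data were seen, gave the counts named above. The fit has 4 residual degrees of freedom, and each of the 50 genes had at least 221 counts in every library.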
